A study of Saccharomyces cerevisiae with 12 samples.

Results

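The 5.8S rRNA of budding yeast, gene RDN58-1 on chromosome XII between the genes of the 18S and 25S rRNAs, was examined in RiboMeth-seq libraries of total RNA, as 1 of 11 RNAs for which read ends were counted at every nucleotide. Its 158 nucleotides, of 8112 in the 11 RNAs, were taken by the name of the RNA alone, with no use of measured values. RiboMeth-seq breaks RNA by alkaline hydrolysis, sequences fragments selected on gels at 20 to 40 nucleotides, and counts where the fragments begin and end. A ribose that carries a 2′-O-methyl group protects its own phosphodiester bond, so a methylated nucleotide has few ends compared with its neighbours.

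The 12 libraries fall into 4 groups of 3, described by the series as biological triplicates of exponentially growing cells. WT + EV is a wild-type strain (BY4741 background) with the empty low-copy plasmid pRS415, and Δdbp7 + EV is a strain lacking the gene for Dbp7 with the same empty plasmid. Δdbp7 + Dbp7WT and Δdbp7 + Dbp7DQGD are the deletion strain carrying pRS415 with, respectively, wild-type Dbp7 or a protein with a glutamate-to-glutamine exchange in its DEGD motif, both under the promoter of DBP7. Dbp7 is an RNA helicase of the early precursors of the large ribosomal subunit, and the exchange leaves it catalytically inactive, so Δdbp7 + EV and Δdbp7 + Dbp7DQGD are the groups without active Dbp7. Both of these strains grow more slowly, so growth and helicase activity cannot be told apart.

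The 5.8S rRNA lies between the 18S and the 25S rRNA in the same precursor, is trimmed at both ends from spacer sequence and remains paired with the 5′ part of the 25S rRNA in the finished 60S subunit, which holds 1 copy of each. In yeast it carries a pseudouridine, at U73, and no known 2′-O-methylation. It is printed here 5′ to 3′ as the deposited tables spell it, because the scores below are read against its letters. The capitals mark the 7 nucleotides whose mean score, a measure of protection explained below, was at least 0.5 over the 12 libraries.

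5.8S rRNA: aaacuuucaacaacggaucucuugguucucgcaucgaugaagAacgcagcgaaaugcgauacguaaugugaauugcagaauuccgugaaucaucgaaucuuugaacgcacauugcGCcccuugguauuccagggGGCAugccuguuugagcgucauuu

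The libraries held 5580519 to 23549872 read ends over all 11 RNAs. The groups with active Dbp7 (8578561 to 23549872) and those without it (5580519 to 10361153) overlapped only through 2 libraries. These were WT + EV replicate 3 (8578561) and Δdbp7 + Dbp7DQGD replicate 2 (10361153). The mean was 1.59e+07 with and 7.53e+06 without active Dbp7, so depth went largely with the groups compared. 5.8S itself had between 743447 and 1947168, with means of 1.31e+06 and 1.25e+06 in the same order. The part of depth in the differences below was not tested. At no RNA and in no library of 132 combinations did the 5′ ends exceed the 3′ ends, though these include the almost empty U14 and U3 RNAs, which say little on this. The 5′ column was therefore read as listing a fragment at the nucleotide before its first one, so that fragments beginning at nucleotide 1 are in the 3′ column only. The sources used here do not state this, and the counts of such fragments below rest on it. The U14 and U3 RNAs of the table had at most 6 ends in a library and were not used.

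The first question was how much of the sequenced RNA was 5.8S. In WT + EV it took 8.27%, 8.80% and 11.5% of all ends in replicates 1 to 3, and in Δdbp7 + Dbp7WT 5.98%, 8.04% and 8.36%. In Δdbp7 + EV it took 22.4%, 19.4% and 16.4%, and in Δdbp7 + Dbp7DQGD 12.3%, 13.3% and 15.3%. The share was therefore higher in each library without active Dbp7 than in each library with it. As ends are shares of a library, more 5.8S and less of the other RNAs cannot be told apart in these values.

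Relative to the 25S rRNA, its partner in the large subunit, 5.8S was 2.45-fold higher without active Dbp7. In ends per nucleotide, log2 of 5.8S over 25S was 1.53, 1.63 and 2.04 in the 3 WT + EV libraries. It was 3.42, 3.09 and 2.86 in Δdbp7 + EV. With the plasmids it was 1.00, 1.45 and 1.54 in Δdbp7 + Dbp7WT and 2.33, 2.49 and 2.77 in Δdbp7 + Dbp7DQGD. The 6 libraries without active Dbp7 all lay above the 6 with it, and a ratio of ends is not a molar ratio, since an RNA of 158 nucleotides and one of 3396 need not be recovered alike. The pooled means were 2.83 ± 0.39 and 1.53 ± 0.33 (SD, n = 6), a difference of 1.30 on the log2 scale (two-sided exact permutation p = 0.00216, the smallest this design can give, adjusted p = 0.0216 over 2 ratios and 5 comparisons). The ratio was higher in 6 of 6 same-numbered pairs, which any pairing would give, since the 6 and 6 libraries do not overlap. Sign flips within the pairs gave an exact p of 0.0312, the smallest possible for 6 pairs. The comparisons of 3 pairs adjusted with it cannot go below a sign-flip p of 0.25. Its adjusted p of 0.156 was therefore the lowest possible, so this form of the test could not pass and decides nothing.

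Both forms of the loss were then taken singly. The mean log2 ratio to 25S was 3.12 ± 0.28 with the deletion and 1.73 ± 0.27 (SD, n = 3) without it, higher by 1.39 or 2.62-fold, and with the inactive protein in place of the active one it was 2.53 ± 0.22 against 1.33 ± 0.29, higher by 1.20 or 2.3-fold. The groups did not overlap in either comparison, but an exact permutation test of 3 against 3 cannot go below p = 0.1, and both had that value (adjusted p = 0.125). A limma fit over the ratios of 7 RNAs, which shares the spread between groups, gave adjusted p = 0.000187 for the deletion and 0.000416 for the inactive protein. The effects of the deletion and of the inactive protein differed by -0.19 on the log2 scale (exact permutation p = 0.8), a difference this design did not resolve. Δdbp7 + Dbp7DQGD lay below Δdbp7 + EV by 0.59 (exact p = 0.1, adjusted p = 0.125) without overlap, and limma called this difference (adjusted p = 0.0183). Δdbp7 + Dbp7WT and WT + EV overlapped, at a difference of -0.40 (exact p = 0.2, adjusted p = 0.222). Both of these comparisons set a Dbp7-plasmid group against an empty-plasmid group. Plasmid content and the set of same-numbered pairs change with them, so an effect of the protein cannot be told apart.

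**Figure D1:**
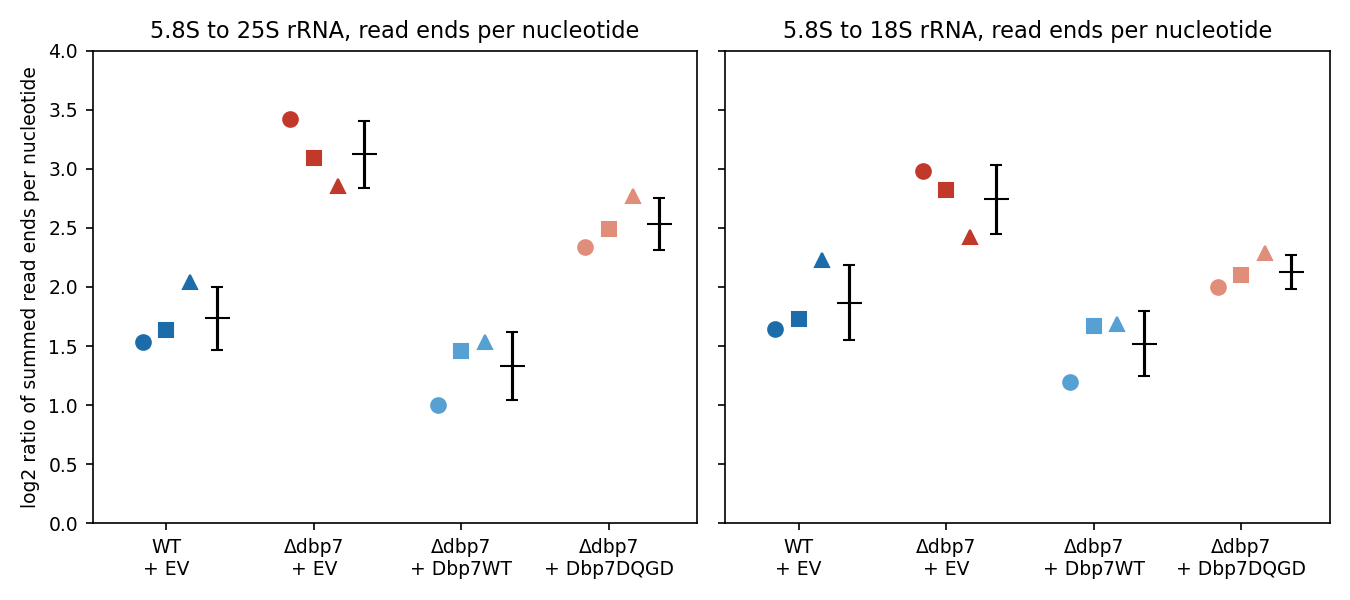
The log2 ratio of 5.8S to 25S (left) and to 18S (right) summed read ends per nucleotide, with a symbol for each library (circle, square and triangle for replicates 1, 2 and 3) and, in black, the mean and SD of the 3 libraries of a group. On the left the lowest library without active Dbp7 (2.33) is above the highest with it (2.04), and on the right WT + EV replicate 3 (2.23) lies among the Δdbp7 + Dbp7DQGD libraries (2.00 to 2.28).

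Against the 18S rRNA, the RNA of the small subunit, the rise was smaller. Log2 of 5.8S over 18S ends per nucleotide was 1.64, 1.73 and 2.23 in WT + EV and 2.99, 2.82 and 2.42 in Δdbp7 + EV. In Δdbp7 + Dbp7WT it was 1.20, 1.67 and 1.68, and in Δdbp7 + Dbp7DQGD 2.00, 2.10 and 2.28. The ranges of the 6 libraries without and with active Dbp7 overlapped because of WT + EV replicate 3. The difference of the pooled means was 0.74 on the log2 scale, or 1.67-fold (2.44 ± 0.39 against 1.69 ± 0.33, SD, n = 6, exact permutation p = 0.00649, adjusted p = 0.0325), with 6 of 6 pairs higher. It no longer passed when WT + EV replicate 1 or 2 or any one of the 3 Δdbp7 + Dbp7WT libraries was left out (adjusted p from 0.0649 to 0.0758). Sign flips within pairs gave the lowest values that test can give (exact p = 0.0312, adjusted p = 0.156), so the difference could not pass there. With the deletion this ratio was higher by 0.88 (1.83-fold) and with the inactive protein by 0.61 (1.53-fold), both without overlap and both at the smallest exact p of 0.1 (adjusted p = 0.125). These 2 effects differed by -0.27 (exact permutation p = 0.645). Δdbp7 + Dbp7DQGD again lay below Δdbp7 + EV, by 0.61 (exact p = 0.1, adjusted p = 0.125), and Δdbp7 + Dbp7WT differed from WT + EV by -0.35 (exact p = 0.3, adjusted p = 0.3). Plasmid content changes in both of these comparisons too.

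Beside these ratios stands the balance of the 2 long rRNAs. Log2 of 25S over 18S ends per nucleotide was 0.10 to 0.22 in the 6 libraries with active Dbp7 and -0.49 to -0.27 in the 6 without it.

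The small nuclear RNAs of the table, which take part in splicing and are not made by RNA polymerase I, were the other reference. Among these 5 RNAs, U2, U1 and U6 had the steadiest ratio to 5.8S, with an SD of the log2 ratio over the 12 libraries of 0.50, 0.51 and 0.94, compared with 0.52 for 18S and 0.76 for 25S. Relative to each of them the mean of 5.8S was lower, not higher, without active Dbp7. Log2 of 5.8S over U2, which rests on 3087 to 12216 U2 ends a library, was 10.50 ± 0.34 in Δdbp7 + EV, against 10.89 ± 0.28 (SD, n = 3) in WT + EV. It was 9.71 ± 0.12 in Δdbp7 + Dbp7DQGD, against 10.61 ± 0.14 in Δdbp7 + Dbp7WT. The ranges of Δdbp7 + EV (10.13 to 10.78) and WT + EV (10.71 to 11.21) overlapped, while Δdbp7 + Dbp7DQGD (9.59 to 9.84) lay below Δdbp7 + Dbp7WT (10.44 to 10.70). With U1 in its place, at 1034 to 4387 ends a library, the means were 11.05 ± 0.33 against 11.32 ± 0.38 and 10.23 ± 0.22 against 11.20 ± 0.21.

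Against U6 the separation was wider. Log2 of 5.8S over U6 was 8.78 to 9.25 in the 6 libraries with active Dbp7 and 7.14 to 7.90 in the 6 without it, a difference of the means of -1.74. The corresponding differences were -1.92 for U5 and -1.93 for U4, compared with -0.64 for U2 and -0.62 for U1. In the same libraries all 5 small nuclear RNAs were higher relative to 25S without active Dbp7, by 1.91 (U1) to 3.23 (U4) on the log2 scale. The rise of 5.8S was thus a rise relative to 25S and 18S and not to the small nuclear RNAs, and these differences were given as descriptions, with no test.

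**Figure D2:**
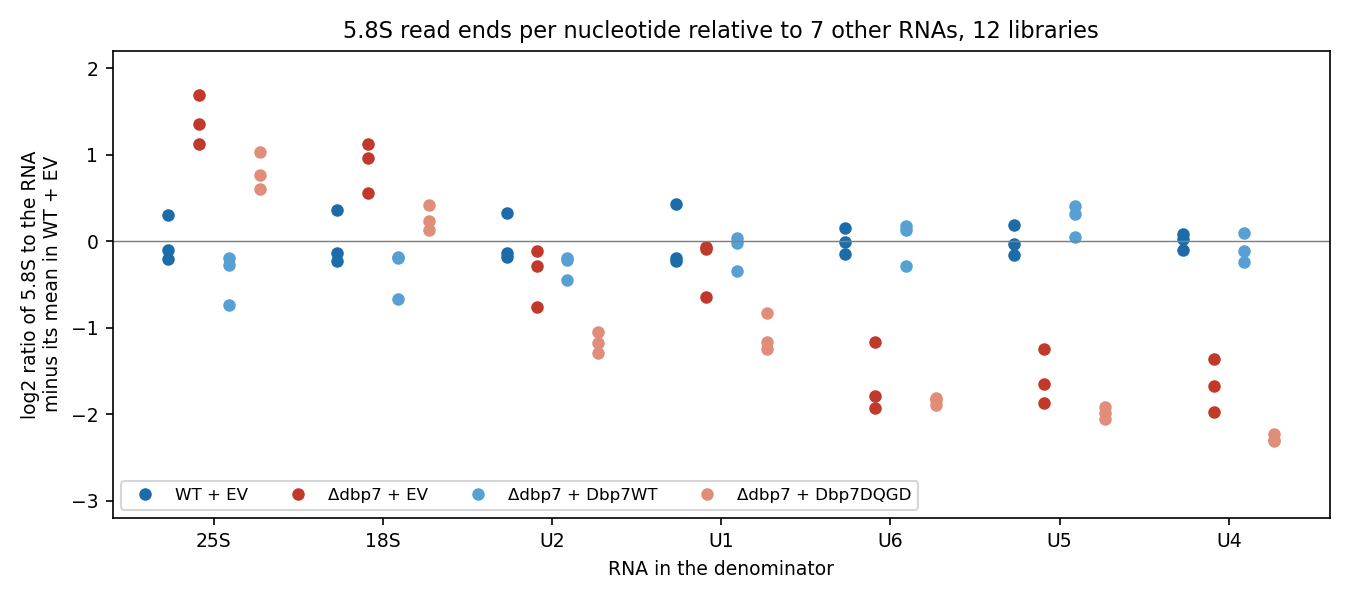
The log2 ratio of 5.8S to each of 7 RNAs (horizontal axis), in read ends per nucleotide, after subtraction of the mean of that ratio in WT + EV, with a point for each of the 12 libraries in the colour of its group. Both groups without active Dbp7 lie above the line for 25S and 18S and below it for U6, U5 and U4.

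Along the molecule, 5′ and 3′ ends were spread unevenly. No 3′ end was listed at nucleotides 1 to 14 in any library, every library had one from nucleotide 18 on, and no 5′ end was listed after nucleotide 143. The mean fragment length, rebuilt from both columns, was 27.8 to 29.5 nucleotides on 5.8S, compared with 28.1 to 30.5 on 18S and 28.5 to 30.7 on 25S. On 5.8S it averaged 28.8 ± 0.53 nucleotides with active Dbp7 and 28.2 ± 0.40 without it (SD, n = 6), with the longest fragments in Δdbp7 + Dbp7WT (28.8 to 29.5). The difference was not particular to 5.8S, with 29.5 ± 0.69 and 28.7 ± 0.48 on 18S and 29.9 ± 0.67 and 29.0 ± 0.46 on 25S. Between the empty-plasmid groups it was small on 5.8S, with 28.4 ± 0.42 in WT + EV and 28.3 ± 0.42 in Δdbp7 + EV (SD, n = 3). The part of fragment length in the ratios above was not tested.

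The nucleotides with most ends lay together in the middle of the RNA. U55, U67, C57, U60 and C62 had the 5 highest mean shares of the summed ends, 1.60%, 1.57%, 1.54%, 1.49% and 1.40%, and together they held 6.58% to 8.43% of the 5.8S ends of a library. The share at U55 ranged from 1.23% in Δdbp7 + Dbp7DQGD replicate 3 to 1.79% in WT + EV replicate 2, and all 5 had a score of 0 in all 12 libraries. By base, ends were fewest at the 37 G nucleotides, with 0.76 to 0.81 times the mean of the RNA, and most at the 36 C nucleotides, with 1.06 to 1.14 times the mean.

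**Figure D3:**
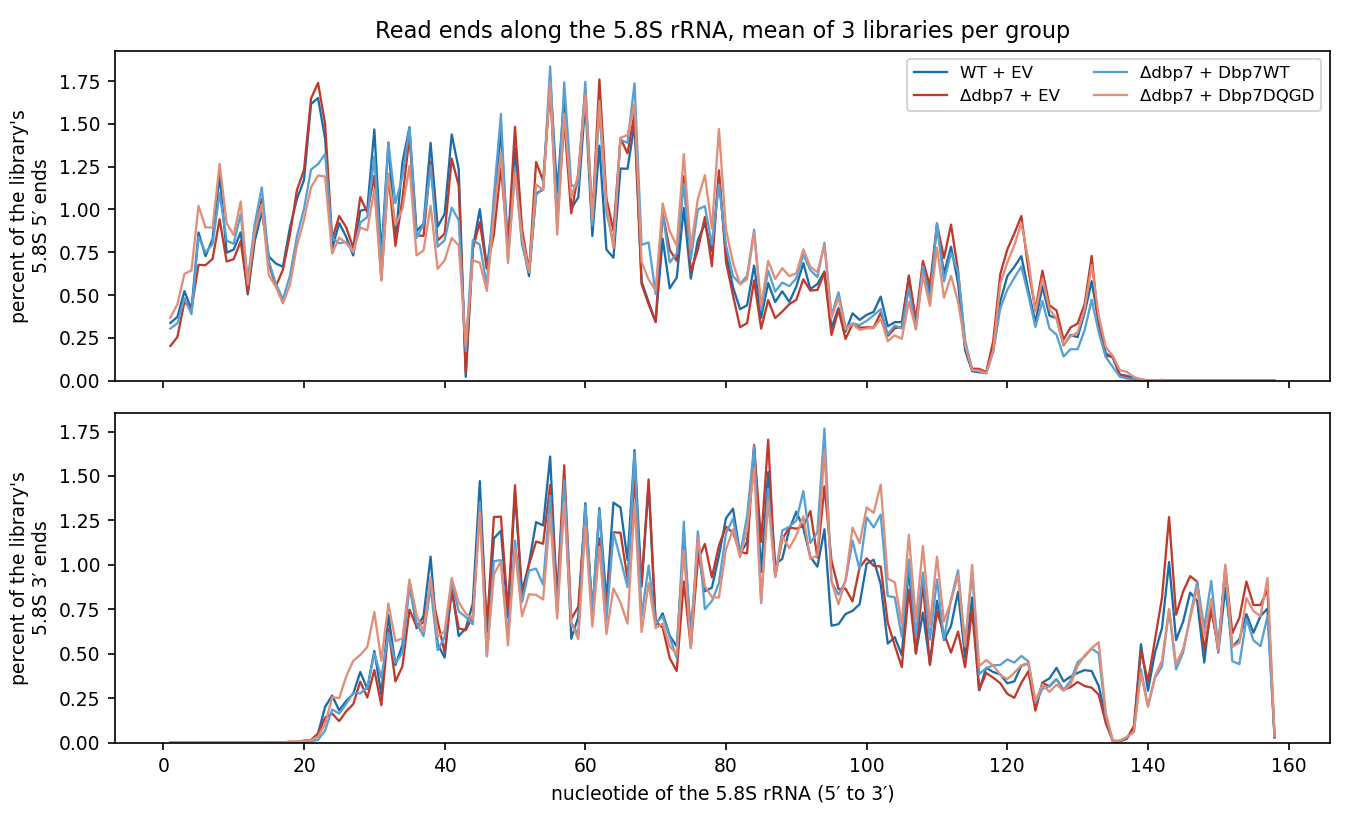
The percent of a library's 5.8S 5′ ends (top) and 3′ ends (bottom) at each of the 158 nucleotides, as the mean of 3 libraries for each group. The 4 groups follow one course, with no 3′ ends before nucleotide 15, no 5′ ends after nucleotide 143 and few 3′ ends at nucleotides 135 and 136.

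Whether active Dbp7 changed the large-scale shape was asked by dividing the RNA into nucleotides 1 to 53, 54 to 106 and 107 to 158. The 5′ segment held 33.2% ± 1.6 of the ends without active Dbp7 and 34.1% ± 2.2 with it (SD, n = 6), and the middle segment 47.0% ± 1.8 and 47.4% ± 1.6. The 3′ segment held 19.8% ± 2.7 without and 18.5% ± 1.9 with active Dbp7, a difference of 1.32 percentage points. None of these differences passed (exact permutation p = 0.392, 0.701 and 0.325, adjusted p = 0.588, 0.701 and 0.588). In the 3′ segment, however, the library without active Dbp7 was the higher one in 6 of 6 same-numbered pairs. In the empty-plasmid pairs its share was 20.0% against 19.2%, 17.01% against 16.43% and 22.8% against 20.3%, and in the others 17.8% against 17.2%, 23.4% against 20.8% and 17.95% against 16.95%. Sign flips within the pairs gave an exact p of 0.0312, the smallest possible for 6 pairs, or 0.0938 adjusted over the 3 segments. A single segment at that p could not pass after this adjustment, so the adjusted value decides nothing here.

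At the 5′ end, fragments that begin at nucleotide 1, the first of the mature RNA, could be counted as the 3′ ends in excess of the 5′ ends. They made up 2.31%, 0.39% and 1.33% of the 5.8S fragments in WT + EV replicates 1, 2 and 3, and 1.83%, 0.27% and 1.08% in Δdbp7 + EV. In Δdbp7 + Dbp7WT they made up 0.53%, 1.97% and 0.98%, and in Δdbp7 + Dbp7DQGD 0.30%, 2.18% and 1.22%. The share thus went with the replicate number within each pair of groups, replicate 1 being highest with the empty plasmid and replicate 2 with the others, and each group spanned most of the range. With and without active Dbp7 the means were 1.25% ± 0.77 and 1.15% ± 0.78 (SD, n = 6, exact permutation p = 0.797, adjusted p = 0.797). The difference of -0.10 percentage points turned to 0.04 to 0.11 when 1 of 4 libraries was left out, which were replicate 1 of WT + EV or of Δdbp7 + Dbp7DQGD and replicate 2 of Δdbp7 + Dbp7WT or of Δdbp7 + EV. In Δdbp7 + EV the share was below that of WT + EV in 3 of 3 pairs. On 18S such fragments made up 0.10% to 0.26%, and on 25S 0.07% to 0.11%, of the fragments. These shares are not set against that of 5.8S, since 1 nucleotide is a larger part of an RNA of 158 nucleotides than of one of 1800 or 3396. Fragments that cross into the spacer before the mature 5′ end, from precursors or from the longer form of 5.8S, are not in this table of mature RNAs and were not analysed here.

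**Figure D4:**
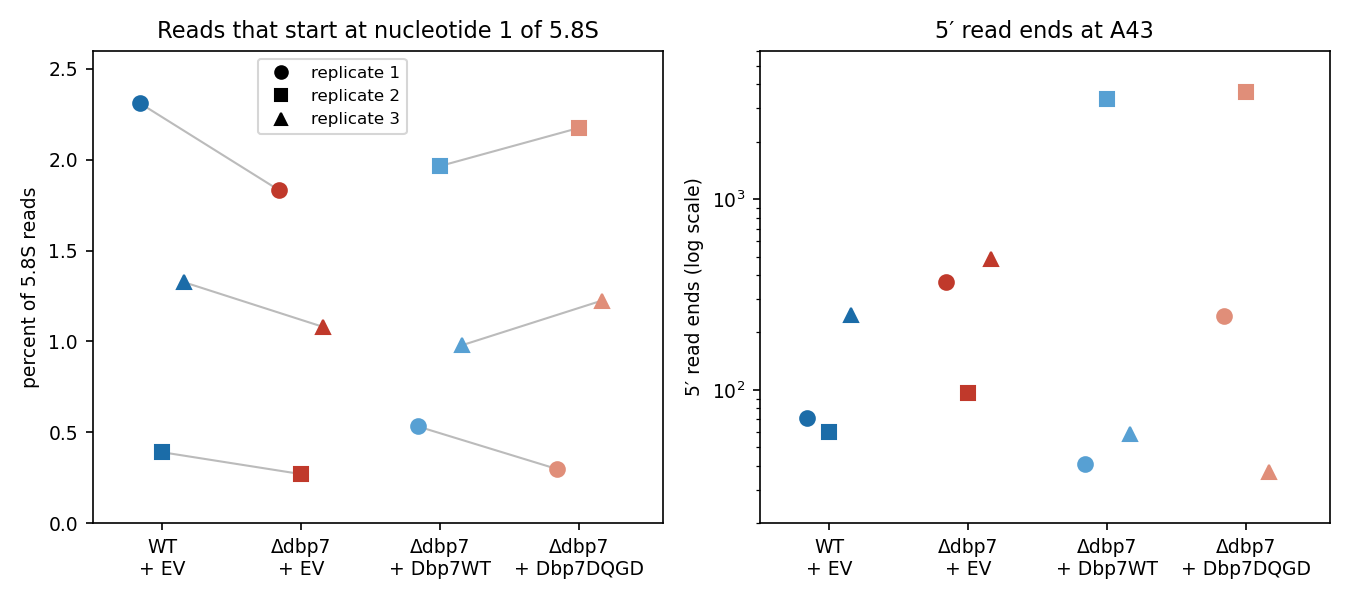
Left, the percent of 5.8S fragments that begin at nucleotide 1 in each library, with grey lines between same-numbered libraries of the groups compared, which run from 0.27% to 2.31%. Right, the number of 5′ ends at A43 on a log axis, where replicate 2 of Δdbp7 + Dbp7WT (3371) and of Δdbp7 + Dbp7DQGD (3660) stand above the other 10 libraries (37 to 485).

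The first listed nucleotide, A1, had 579 to 3812 5′ ends a library, the lowest in Δdbp7 + EV replicate 2 and the highest in WT + EV replicate 1. At the other end, the last nucleotide, U158, had few 3′ ends, between 66 and 355 a library, compared with 2330 to 8937 at U157. U158 held 0.037% ± 0.015 of the 5.8S 3′ ends with active Dbp7 and 0.034% ± 0.015 without it (SD, n = 6, exact permutation p = 0.758, adjusted p = 0.797).

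Same-numbered libraries of the groups compared had similar profiles. Over the 158 nucleotides, which share 1 sequence, the log2 share of ends correlated with Pearson's r between 0.94 and 0.99 in the 6 pairs of same-numbered libraries within the empty-plasmid groups and within the Dbp7-plasmid groups. It was between 0.81 and 0.95 among the 12 pairs of libraries of one group, and between 0.84 and 0.96 among the 24 pairs of other number across the empty-plasmid and Dbp7-plasmid groups. WT + EV replicate 2 was closer to Δdbp7 + Dbp7WT replicate 3 (r = 0.963) than to Δdbp7 + EV replicate 2 (r = 0.936). The deviations from the group means correlated at -0.36 to 0.53 in the 24 pairs of other number across the empty-plasmid and Dbp7-plasmid groups. They correlated at 0.51 to 0.96 in the 6 same-numbered pairs, a range that overlaps the former at its low end. Between libraries of the same number in the empty-plasmid and the Dbp7-plasmid groups they correlated at -0.58 to -0.13, so the likeness of same-numbered libraries held only within the empty-plasmid and within the Dbp7-plasmid groups.

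This was plainest at A43 and A17. At A43 the Dbp7-plasmid groups had 41, 3371 and 59 (active) and 244, 3660 and 37 (inactive) 5′ ends, and the empty-plasmid groups 71, 60 and 248 (WT + EV) and 370, 96 and 485 (Δdbp7 + EV). The replicate 2 libraries of the Dbp7-plasmid groups stood apart, and their 3′ ends at A43 (2953 and 3444) were within the range of the others (2693 to 6471). The same 2 libraries had the fewest 5′ ends at A17, 849 and 647, compared with 2118 to 5996 in the other 10. Their scores at A17 were accordingly 0.82 and 0.85, while the others had 0.27 to 0.43.

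The score that RiboMeth-seq takes as the methylated fraction, score C, is 1 minus the ends at a nucleotide over the weighted mean of the 6 nucleotides on either side, and is 0 where that is negative. It exists for 146 of the 158 nucleotides, 7 to 152. Its mean over these was 0.131 to 0.147 in the 12 libraries, with 0.142 ± 0.0059 in those with and 0.140 ± 0.0042 in those without active Dbp7 (SD, n = 6). The median nucleotide had a score of 0.0158 to 0.0658 in a library. In 38 nucleotides the score was 0 in all 12 libraries and in 44 it was above 0 in all 12. A mean score of 0.5 or more was reached by 7 of 146 nucleotides (4.79%), while 46 of 1788 in 18S (2.57%) and 82 of 3384 in 25S (2.42%) reached it, and those RNAs, unlike 5.8S, carry known 2′-O-methylations.

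The highest scores formed a block of 4 neighbours. G136 had a mean score of 0.891 (0.767 to 0.933 over the 12 libraries), C137 0.873 (0.746 to 0.939), A138 0.802 (0.608 to 0.908) and G135 0.6995 (0.581 to 0.840). G116, at 0.597 (0.456 to 0.782), was the fifth. The 3′ ends at G135 and G136 numbered only 22 to 149 and 6 to 170 a library, and the 5′ ends 285 to 1497 and 94 to 697. At G133, 2 nucleotides before the block, there were 1250 to 3898 3′ ends and 849 to 4006 5′ ends, with a score of 0 in all libraries. The 5′ ends fell through the block itself. Over all libraries they went from 46745 at G132 to 9786 at G135, 3013 at G136, 2098 at C137 and 1021 at A138. They were at 394 at U139, where the 3′ ends were back at 37771, and gave out by nucleotide 143. The block and its right-hand neighbours thus both have few 5′ ends, and the part of this fall in the scores was not tested.

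At G136 the deletion and wild-type libraries overlapped, while those with the inactive protein all lay below those with the active one. The score was 0.903 ± 0.027 with the deletion and 0.902 ± 0.025 in WT + EV, and 0.846 ± 0.068 with the inactive and 0.912 ± 0.018 with the active protein (SD, n = 3). The lowest of the 12 values, 0.767, was that of Δdbp7 + Dbp7DQGD replicate 2, and the other 2 of that group were 0.883 and 0.889. C137 was at 0.905 ± 0.051, 0.886 ± 0.049, 0.810 ± 0.076 and 0.890 ± 0.055 in the same order, again with the lowest value, 0.746, in Δdbp7 + Dbp7DQGD replicate 2.

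**Figure D5:**
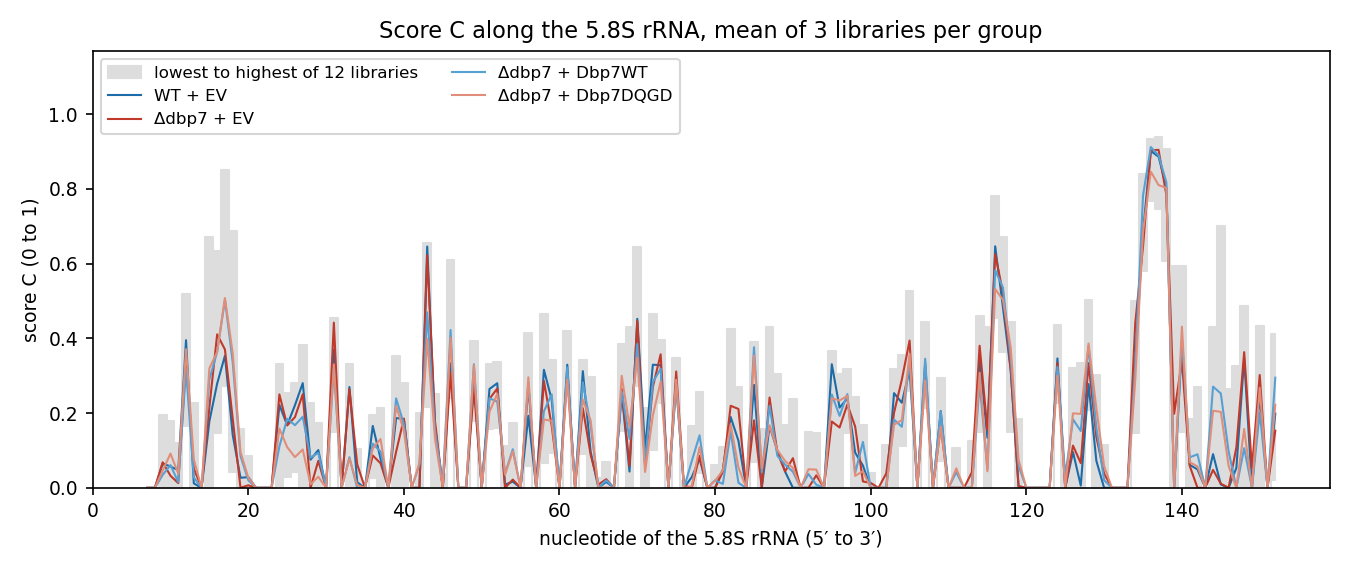
Score C (0 to 1) at the 146 scored nucleotides, with a line for the mean of 3 libraries of each group and, in grey, the range from the lowest to the highest of the 12 libraries. The highest block is at nucleotides 135 to 138, where group means reach 0.912, and U73 lies at 0.23 to 0.40.

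The letters around the block were read from the sequence above, after its scores were seen. Nucleotides 135 to 142 spell GGCAugcc, with the 4 high-scoring nucleotides in capitals, and this run of 8 equals its own reverse complement. As GGCAUGCC was copied from this place, a search of all 11 RNAs had to find it here. It found no other place in 8035 windows of 8 nucleotides (0.0124% with this one), which is no measure of its rarity. The nucleotides of high score at 116 and 117 begin a stretch that is complementary to one running into the block. In the lines below, which show this match, capitals mark a mean score of at least 0.5.
nucleotides 116 to 120: GCccc
nucleotides 133 to 137: ggGGC
G136 also closes a run of 5 G (132 to 136). Of the 5 other runs of 5 or more G in the table, the 3 in 18S and 1 in 25S had mean scores of 0.270 to 0.423 at their last G, beside 0.891 at G136. The 1 in U2 had 0.225, but U2 had only 3087 to 12216 ends a library over 1171 nucleotides. What the G run, or the nearness to the 3′ end, adds to the score of G136 was not tested. Such matches describe the letters only and do not show a pairing in these samples.

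The other nucleotides of high score were A43 and C117. A43 had a mean of 0.534 (0.216 to 0.655), and C117 had 0.511 (0.362 to 0.672). Both scores rest mainly on the 5′ ends. Over all libraries A43 had 8742 5′ ends, against 80080 at G42 and 58639 at A44. Its 51202 3′ ends were near the 50786 and 54865 of the same neighbours. C117 had 3508 5′ ends, with 4535 at G116 and 14422 at C118, and 34691 3′ ends, with 28211 and 32203. The 5′ ends were thus low not at C117 alone but from C115 (4847) on, and were at 39417 at C119. At A43 the empty-plasmid groups had 0.646 ± 0.015 (WT + EV) and 0.622 ± 0.013 (Δdbp7 + EV), and the others 0.470 ± 0.13 (Δdbp7 + Dbp7WT) and 0.398 ± 0.16 (Δdbp7 + Dbp7DQGD), where replicate 2 gave the lowest values of 0.327 and 0.216. U73, the pseudouridine, had a score of 0.322 on average, and its groups were at 0.328 ± 0.089, 0.357 ± 0.013, 0.319 ± 0.032 and 0.284 ± 0.0071 (SD, n = 3, wild type, deletion, active protein, inactive protein). It had 4407 to 11431 summed ends a library. A pseudouridine leaves the ribose free, so this value is not a methylation level.

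Whether any nucleotide of 5.8S changed its ends relative to its neighbours was tested with the quasi-likelihood test of edgeR in 1 fit over 5318 nucleotides of 5.8S, 18S and 25S, with the flanking mean as offset. In all 5 comparisons and in the interaction, 0 of the 146 nucleotides of 5.8S passed at an adjusted p under 0.05, against a background over all nucleotides tested of 0% in each. At an unadjusted p under 0.05, Δdbp7 + EV against WT + EV gave 1 of 146, beside 1.28% of all nucleotides, and Δdbp7 + Dbp7DQGD against Δdbp7 + Dbp7WT gave 1, beside 0.395%. Without against with active Dbp7 gave 0, beside 1.6%, and the interaction gave 0, beside 0.094%. The comparisons between empty-plasmid and Dbp7-plasmid groups gave more, but near the background, with 6 of 146 (4.11%) for Δdbp7 + Dbp7WT against WT + EV, beside 4.44%, and 11 (7.53%) for Δdbp7 + Dbp7DQGD against Δdbp7 + EV, beside 6.9%. With the pairs of same-numbered libraries as a replicate block 0 passed as well, but more had an unadjusted edgeR p under 0.05. These were 18 of 146 in the pooled comparison, 10 for the inactive protein, and 7 each for the deletion and the interaction. The share of all nucleotides in that fit is not given here, so these counts are not read further. With 5′ ends alone the smallest adjusted p of the pooled comparison by edgeR was 0.0511. The median standard error of a nucleotide's log2 difference was 0.14 between 2 groups and 0.10 for the pooled comparison, which sets the size of change that could have been seen.

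The nucleotides with the smallest p in each comparison did not pass. For the deletion they were G95 (log2 difference 0.33, SE 0.15), C8 (-0.24, SE 0.11) and C108 (0.23, SE 0.13), all with an edgeR adjusted p of 1.00. At G95 the ends over the flanking mean were 0.67, 0.63 and 0.71 in WT + EV and 0.75, 1.06 and 0.72 in Δdbp7 + EV. Every value of the deletion was above the wild type, and replicate 2 stood apart. For the inactive protein the smallest p fell on 3 nucleotides of the block, G136 (0.82, SE 0.32), G135 (0.53, SE 0.28) and C137 (0.78, SE 0.44), each with an edgeR adjusted p of 1.00. The ends of G136 over its flanks were 0.067, 0.092 and 0.103 in Δdbp7 + Dbp7WT and 0.117, 0.233 and 0.111 in Δdbp7 + Dbp7DQGD, without overlap but with the largest value in 1 library. In the pooled comparison A77 (0.22, SE 0.12), G136 (0.40, SE 0.22) and A149 (-0.31, SE 0.17) came first, each with an edgeR adjusted p of 1.00. C8, G136 and C137 came first in the interaction, with differences of 0.29, 0.84 and 1.04 (edgeR adjusted p = 1.00).

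Between the plasmid sets G133 came first both times. Its ends over the flanking mean were 1.42, 1.33 and 1.41 in WT + EV and 1.32, 1.28 and 1.20 in Δdbp7 + EV. They were 1.91, 1.71 and 1.91 in Δdbp7 + Dbp7WT and 1.75, 1.79 and 2.09 in Δdbp7 + Dbp7DQGD, above all 6 empty-plasmid libraries. Between the groups without active Dbp7 the log2 difference was 0.57 (SE 0.11, edgeR adjusted p = 0.408), and DESeq2, the other tool run, called it (adjusted p = 0.000218) as the only nucleotide of 5.8S, beside 0.15% of all nucleotides. Between the groups with active Dbp7 the difference was 0.41 (SE 0.11, edgeR adjusted p = 0.959). A43 followed in both, with 0.67 (edgeR adjusted p = 0.670) and 0.58 (edgeR adjusted p = 0.959), then G85 (-0.34, SE 0.12, edgeR adjusted p = 0.670) in the former and C94 (0.27, SE 0.10, edgeR adjusted p = 0.959) in the latter. Plasmid content and the set of paired libraries change together in these comparisons and cannot be told apart.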

How the data were processed

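RiboMeth-seq of total RNA was run on an Ion Proton instrument, and the submitters' processing notes name cutadapt 2.0 for trimming and Bowtie2 2.3.4.1 for alignment. The genome build is not given in the sources used here. The authors deposited counts of 5′ ends, 3′ ends and their sum at each nucleotide, not normalized, and score C, a fraction from 0 to 1, without replicate pooling. Other scores (24 columns of single libraries), the authors' group averages and an overview of other sites were not used. The 5.8S gene name is that of the R64 annotation.

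Ratios are log2 of summed ends per nucleotide, with no pseudocount. They, the segment shares and the terminal shares were tested by exact two-sided permutation with Benjamini-Hochberg adjustment. The scan used edgeR 4.0.16 in R 4.3.3, with flanks of 6 nucleotides, a minimum flanking mean of 50 per library and adjustment over all nucleotides. It was also run on simulated counts, drawn independently with a single spread and without the likeness of same-numbered libraries seen here. That run does not show how the scan fares on these data. Limma 3.58.1 and DESeq2 1.42.0 served as alternatives, with other ends, filters, offsets, pairings and left-out libraries. Replicate numbers come from the titles. They were taken to pair libraries within the empty-plasmid and within the Dbp7-plasmid groups, since deviations from group means correlated at 0.51 to 0.96 in all 6 such pairs. Pairs of other number across those groups reached 0.53, so the pairing is read from the data and not certain. If the triplicates were not separate cultures, p-values measure technical spread only. In the scan, nucleotides that passed (up to 10), or the 3 with the smallest p, were named, with the 5 highest by score and by share, both terminal nucleotides and U73. RNAs were named by the SD of their ratio to 5.8S. The members, lists and rules were chosen with earlier results of these data known.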

Additional observations from a re-analysis of the deposited data

How the results depend on the processing

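The pooled ratio of 5.8S to 25S kept its direction and passed with 5′ ends alone, with 3′ ends alone, without 40 nucleotides at either end of every RNA, with medians per nucleotide, with limma and without any 1 library (1.18 to 1.40), and that to 18S was 0.63 to 0.85 without 1 library and lost its call in 5 of 12. With the replicate block neither could pass (1.30 and 0.74, exact sign-flip p = 0.0312, adjusted p = 0.156 for each), as these are the lowest p-values that test can give. Limma called 6 differences between single groups that an exact test of 3 against 3 cannot call: to 25S, 1.39 (deletion), 1.20 (inactive protein) and -0.59 (Δdbp7 + Dbp7DQGD minus Δdbp7 + EV), and to 18S, 0.88, 0.61 and -0.61. Without 1 library these lay at 1.24 to 1.54, 1.04 to 1.31 and -0.72 to -0.44 to 25S, and at 0.75 to 1.06, 0.45 to 0.69 and -0.78 to -0.49 to 18S, while Δdbp7 + Dbp7WT minus WT + EV lay at -0.51 to -0.24 and -0.46 to -0.17. In the differences between Dbp7-plasmid and empty-plasmid groups, plasmid content and the protein cannot be told apart. In the scan DESeq2 called 1 nucleotide, G133, between Δdbp7 + Dbp7DQGD and Δdbp7 + EV, and all other settings called 0 in each comparison, the replicate block over all libraries and by pair included (smallest edgeR adjusted p by pair 0.168). The middle segment turned to 0.32 percentage points with 5′ ends alone and the 5′ segment to 0.18 with 3′ ends alone. Without 1 library the segments ranged from -1.67 to -0.32 (5′), -0.82 to 0.12 (middle) and 0.62 to 1.89 (3′) percentage points. The middle one was positive without Δdbp7 + EV replicate 3 (0.12) or Δdbp7 + Dbp7WT replicate 3 (0.03). Shares at the termini ranged from -0.31 to 0.11 (fragments from nucleotide 1) and -0.0072 to 0.0023 (U158, positive without Δdbp7 + EV replicate 2) percentage points. The share of 5′ ends listed at A1, an alternative chosen after seeing the data, did not pass either. The causes were not tested. Depth limits U1, U2, U4, U5 and U6 to between 652 and 12216 ends a library, so their single nucleotides were not tested.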
